A study of Mus musculus with 6 samples.

Results

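The genes described here handle vitamin A in fat. They encode the blood carrier of retinol (*Rbp4*), its cell surface receptor (*Stra6*), an enzyme that oxidizes retinol (*Rdh10*), enzymes of the *Aldh1a* family, the intracellular carrier *Crabp2* and the retinoic acid receptors *Rara*, *Rarb* and *Rarg*. Of 9 genes listed by symbol, 8 were taken from the table of 19445 gene loci, each from a single row, and *Aldh1a1* was not analysed here. RNA-Seq had been run on inguinal white fat (iWAT), a subcutaneous depot, from 3 mice carrying an *Hlx* transgene (TG) and 3 wild-type littermates (WT), all 12 weeks old and labelled male, with 1 library per mouse. The transgene places the cDNA of the homeobox factor Hlx behind the *aP2* (*Fabp4*) promoter, which is active in adipocytes. The embryos injected with it were C57BL/6 × SJL hybrids, and the lines then had 3 or more generations of backcross to C57BL/6. How many transgenic lines the 3 TG mice came from is not given in the sources used here. Levels are in FPKM, in which the reads of a gene are divided by the length of its transcript and by the mapped reads of the library, so levels of different genes can be set side by side.

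Retinol circulates bound to retinol-binding protein 4, enters cells in part through the receptor Stra6, and is oxidized first to retinaldehyde by retinol dehydrogenases and then to retinoic acid by retinaldehyde dehydrogenases. Crabp2 carries retinoic acid to the nucleus, where it binds retinoic acid receptors that sit on DNA together with retinoid X receptors. Retinoic acid is a known inducer of *Ucp1*, the uncoupling protein of brown fat, and fat is, next to liver, a known site of *Rbp4* expression and of vitamin A storage.

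The steps between the lowest FPKM values pointed to between 18.3 M and 37.4 M mapped reads per library (M, 1e6 reads), lowest in TG replicates 3 and 1 and highest in WT replicate 2. This is an estimate, and the libraries' read counts were not used here. *Hlx* had 96.2 ± 15.3 FPKM (SD, n = 3 mice) in TG and 7.45 ± 0.637 FPKM (SD, n = 3) in WT. *Xist*, an RNA of the inactive X chromosome of females, had between 20.2 and 33.6 FPKM in the 6 libraries, and 0 of 28 loci of the Y chromosome had a value above 0, which goes against the labelled sex in both genotypes alike. Markers of macrophages were lower in TG (summed FPKM of the list 352 to 497, against 740.1 to 941 in WT, 5 of 6 tested markers called lower), and Schwann cell markers summed to 65.5 to 106 FPKM in TG and 12.1 to 19.2 in WT, with 1 of 4 called higher. That marker, *S100b*, made most of the TG sum, with 2.31 to 3.49 FPKM in WT and 37.4 to 93.4 FPKM in TG, while *Sox10* averaged 6.9 FPKM in WT and 5.86 FPKM in TG. Skeletal muscle markers varied most between mice, from 7.02 to 126 summed FPKM in WT and from 84.2 to 604 in TG. The part of these cells in the results below was not tested. In RNA from whole tissue, fewer cells of a type and less RNA per cell cannot be told apart.

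Among these genes, 1 rose and 1 fell in TG iWAT. *Rarb* rose 2.58-fold and *Rbp4* fell to a ratio of 0.288 of the WT mean. The other 6 did not pass the test. The test was limma's, run on log2(FPKM + 1) over the 11692 loci whose mean passed 1 FPKM in WT or in TG, with Benjamini-Hochberg adjustment over all of them, and a gene is called at an adjusted p under 0.05. Fold changes on the log2 scale (TG over WT) are of FPKM + 1, so the change of a gene with a low level comes out smaller than it is in FPKM. All 8 genes passed this filter. The 2 calls are 12.5% of these genes in each direction, against 11.6% of all tested loci called higher and 7.03% called lower (18.6% in either direction), so the counts were near the background. At 5 of the 8 the values of the genotypes did not overlap, which held for 42.9% of all tested loci. Their median log2 fold change was -0.14, and that of all tested loci was -0.01. The exact permutation test, two-sided here and below, has 0.1 as its smallest possible p for 3 mice in each genotype.

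**Figure D1:**
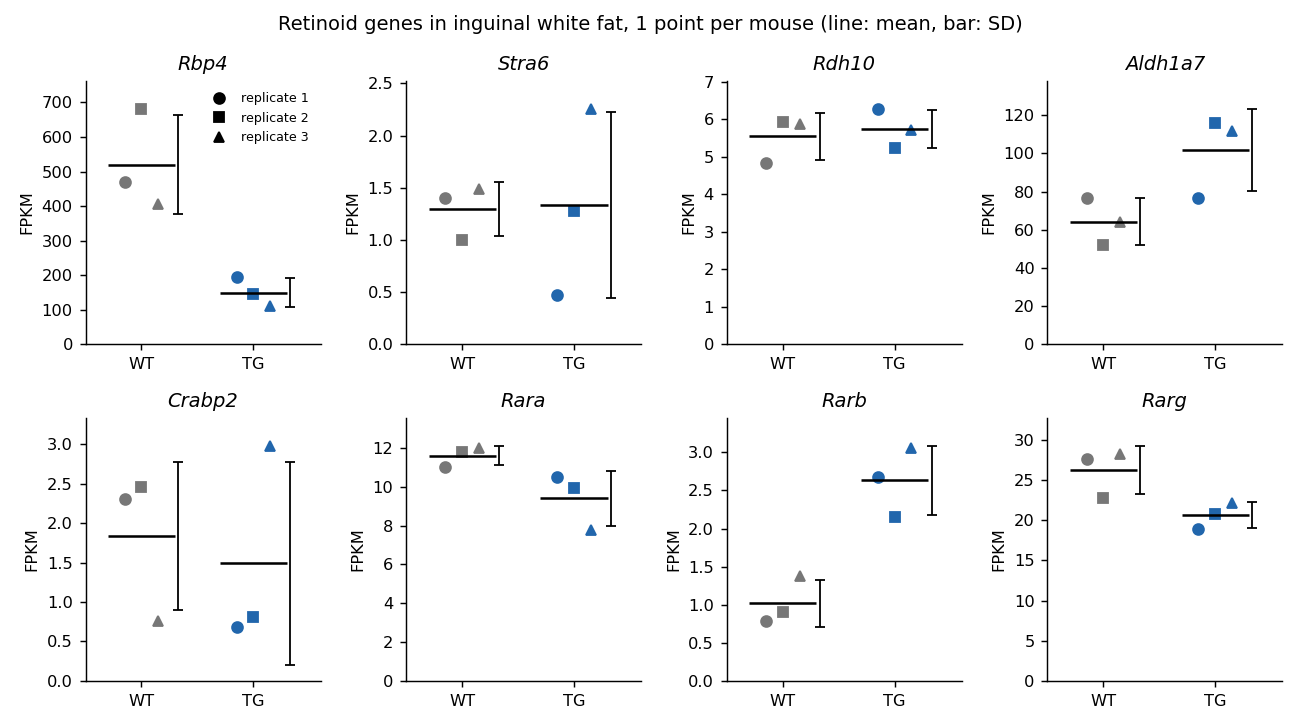
FPKM of the 8 genes (vertical axes, each from 0) in WT (grey) and TG (blue) iWAT, 1 point per mouse with the shape giving the replicate number, the mean as a line and the SD as a bar. *Rbp4* is lower in every TG mouse (109 to 195 FPKM) than in any WT mouse (406 to 680.4 FPKM) and *Rarb* is higher in every TG mouse, while *Stra6*, *Rdh10* and *Crabp2* overlap.

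*Rbp4*, on chromosome 19 of mm10 from 38116619 to 38125321, was the most abundant of the genes. It had 471, 680.4 and 406 FPKM in WT replicates 1, 2 and 3, and 195, 145 and 109 FPKM in TG replicates 1, 2 and 3. The genotypes were far apart, with the highest TG value under the lowest WT value. The mean fell from 519 ± 143 to 149.6 ± 42.8 FPKM (SD, n = 3 each; log2 fold change -1.79, SE 0.26, limma adjusted p = 0.0051; exact permutation p = 0.1). By mean level *Rbp4* ranked 112 among the 11692 tested loci in WT and 511 in TG, and 31 loci had a more negative log2 fold change. Fits that omitted any single mouse gave log2 fold changes from -2.00 to -1.58, and the call held in each.

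The adipocyte markers were set beside this fall. Of 8 markers 4 were called, all lower, and their summed FPKM overlapped between the genotypes (26843 to 33942 in WT and 29014 to 34182 in TG). That sum is mostly *Fabp4*, the gene whose promoter drives the transgene. The called markers were *Slc7a10*, an amino acid transporter gene (log2 fold change -4.03, limma adjusted p = 0.000665), *Retn*, which encodes resistin (-2.01, limma adjusted p = 0.00346), *Adipoq*, which encodes adiponectin (-0.85, limma adjusted p = 0.0172), and *Lpl*. The log2 fold change of *Rbp4* thus lay between those of *Retn* and *Adipoq*. *Plin1*, which encodes a coat protein of the lipid droplet, had a log2 fold change of 0.04 (limma adjusted p = 0.823).

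*Stra6*, on chromosome 9 from 58129087 to 58153997, encodes the receptor that takes retinol from Rbp4 and was near the floor of the filter. It had 1.41, 0.999 and 1.49 FPKM in the WT mice and 0.469, 1.28 and 2.25 FPKM in the TG mice. TG replicate 1 lay below the WT range, replicate 3 above it and replicate 2 inside it. The log2 fold change was -0.05 with a 95% confidence interval from -0.71 to 0.62 (limma adjusted p = 0.92). The values rest on roughly 25 to 119 reads per library, by the depth estimated above.

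**Figure D2:**
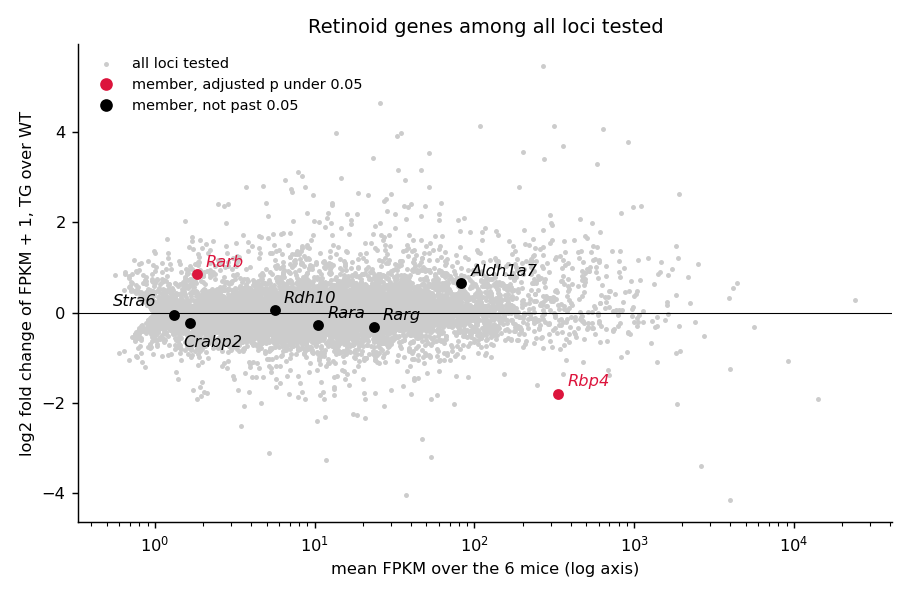
Mean FPKM over the 6 mice (horizontal log axis) against the log2 fold change of FPKM + 1, TG over WT, for all 11692 tested loci (grey), with the 8 genes named, red where called and black where not. *Rbp4* (-1.79) and *Rarb* (0.85) lie toward the lower and upper edges of the cloud, and *Stra6*, *Crabp2*, *Rdh10*, *Rara* and *Rarg* lie inside it.

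*Rdh10*, on chromosome 1 from 16104655 to 16133689, encodes a retinol dehydrogenase that makes retinaldehyde. It had 4.83, 5.93 and 5.87 FPKM in WT and 6.27, 5.24 and 5.72 FPKM in TG. The 6 mice were close together, and the groups overlapped. The log2 fold change was 0.04 with a 95% confidence interval from -0.20 to 0.29 (limma adjusted p = 0.786).

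*Aldh1a7*, on chromosome 19 from 20692952 to 20727556, encodes a cytosolic aldehyde dehydrogenase closely related to Aldh1a1. It had 76.5, 51.8 and 64.0 FPKM in the WT mice and 76.8, 116 and 112 FPKM in the TG mice. TG replicates 2 and 3 were well above the WT range, and TG replicate 1 was level with the highest WT mouse. The mean was 64.1 ± 12.4 FPKM in WT and 102 ± 21.6 FPKM in TG (SD, n = 3 each), with a log2 fold change of 0.65 (SE 0.20, limma adjusted p = 0.0623), so it did not pass the test. Without TG replicate 1 the log2 fold change was 0.84 and the adjusted p was 0.0283 (limma). Reads of this gene can resemble those of *Aldh1a1*. Of 1967 windows of 100 bases in its longest coding transcript in GENCODE M21, 1 was identical to a window of *Aldh1a1* and 8.49% differed from one by at most 2 bases, against 0% for *Aldh1a2* and *Aldh1a3*.

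*Aldh1a2* and *Aldh1a3*, which encode retinaldehyde dehydrogenases, were lower on average in TG and were not called. *Aldh1a2* had 2.58 ± 0.959 FPKM in WT and 1.1 ± 0.576 in TG (SD, n = 3 each, log2 fold change -0.78, limma adjusted p = 0.0812), and its values did not overlap. *Aldh1a3* had 11.6 ± 2.63 FPKM in WT and 7.7 ± 2.08 in TG (log2 fold change -0.55, limma adjusted p = 0.131). With the replicate number as a block, which here marks different animals, the adjusted p of *Aldh1a3* was 0.0172 (limma). *Aldh1a7* therefore made up more of the FPKM summed over these 3 genes in TG, at 89.3%, 91.6% and 94.5% in TG replicates 1, 2 and 3 against 83.1%, 77.8% and 83.9% in WT. That share differed by 10.2 percentage points, without overlap (exact permutation test, two-sided p = 0.1). The sum was 78.3 ± 12.9 FPKM in WT and 110 ± 21.5 FPKM in TG, with overlap (SD, n = 3 each, exact permutation p = 0.2). The share and the sum were taken over these 3 genes in place of the planned ones with *Aldh1a1*. Neither is a measure of retinaldehyde oxidation.

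*Crabp2*, on chromosome 3 from 87948692 to 87953372, encodes the carrier that hands retinoic acid to its receptors. It had 2.30, 2.45 and 0.759 FPKM in WT and 0.683, 0.807 and 2.98 FPKM in TG. In each genotype replicate 3 stood apart from the other mice, below them in WT and above them in TG. The log2 fold change was -0.24 with a 95% confidence interval from -1.17 to 0.69 (limma adjusted p = 0.687), and the values rest on roughly 9 to 67 reads per library. *Fabp5*, which can carry retinoic acid to another nuclear receptor, was far more abundant, with 175 ± 39 FPKM in WT and 134 ± 36 FPKM in TG (SD, n = 3 each, log2 fold change -0.39, limma adjusted p = 0.264). *Crabp2* made up 1.01 ± 0.431% of the FPKM of the pair in WT and 1.32 ± 1.43% in TG (exact permutation test, p = 0.9), and without TG replicate 3 the sign of that difference turned.

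*Rarg* was the main retinoic acid receptor gene of iWAT in all 6 mice, followed by *Rara* and then *Rarb*. *Rarg*, on chromosome 15 from 102234843 to 102257483, had 27.7, 22.8 and 28.3 FPKM in WT and 18.9, 20.8 and 22.1 FPKM in TG. *Rara*, on chromosome 11 from 98927832 to 98974942, had 11.0, 11.8 and 12.0 FPKM in WT and 10.5, 9.94 and 7.78 FPKM in TG. Every TG mouse had less of each than every WT mouse, but neither was called. The log2 fold change of *Rarg* was -0.33 (SE 0.11, limma adjusted p = 0.0727) and that of *Rara* was -0.29 (SE 0.11, limma adjusted p = 0.121). Without WT replicate 2, the WT mouse with the lowest *Rarg*, the adjusted p of *Rarg* was 0.0486 (limma).

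*Rarb* encodes retinoic acid receptor beta, and its own promoter is a textbook target of retinoic acid. It had 0.785, 0.899 and 1.37 FPKM in WT and 2.68, 2.16 and 3.06 FPKM in TG. All TG mice were above all WT mice, and the gene was the least abundant of the 8 in WT. The mean rose from 1.02 ± 0.312 to 2.63 ± 0.453 FPKM (SD, n = 3 each; log2 fold change 0.85, SE 0.16, limma adjusted p = 0.0122; exact permutation p = 0.1). The pseudocount of 1 holds down the fold change of so low a gene, and with 0.1 in its place the log2 fold change was 1.31. Fits that omitted any single mouse gave log2 fold changes from 0.77 to 0.97, with adjusted p up to 0.0478 (limma). The values rest on roughly 57 to 189 reads per library.

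The table gives *Rarb* and its neighbour *Top2b* the same locus, chromosome 14 from 16364927 to 16575210. In the GENCODE M21 annotation these genes lie on opposite strands and share up to 1429 bases of exon. The library kit does not mark strand, so reads from the shared stretch cannot be told apart. *Top2b*, a DNA topoisomerase gene, had 25.3 ± 0.696 FPKM in WT and 23.1 ± 1.65 FPKM in TG (SD, n = 3 each, log2 fold change -0.13, limma adjusted p = 0.284), so it was not called. The part of such reads in the rise of *Rarb* was not tested.

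**Figure D3:**
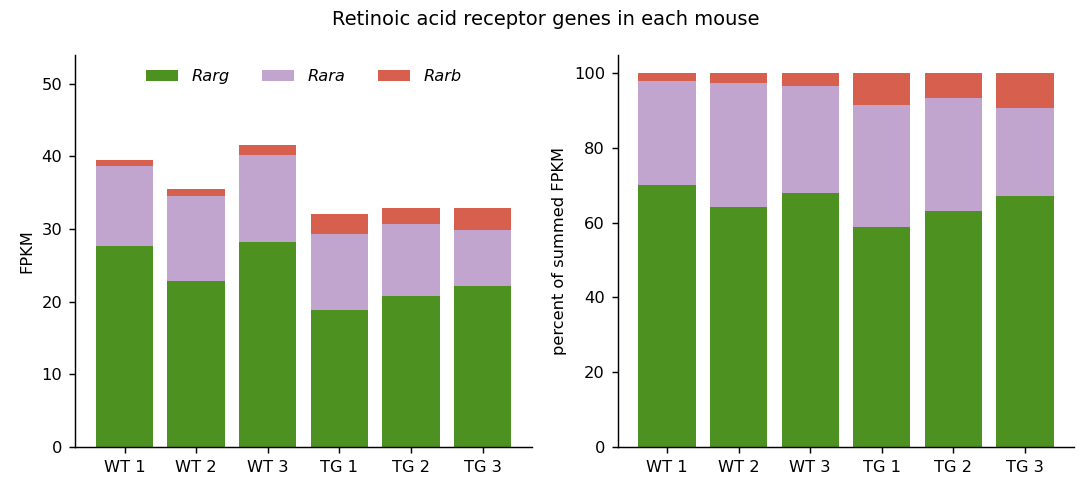
Retinoic acid receptor genes in each mouse as stacked bars, in FPKM (left, vertical axis from 0) and as a percent of the FPKM of the 3 genes (right). The summed bars are shorter in TG (32.1 to 33.0 FPKM) than in WT (35.5 to 41.6 FPKM), and the *Rarb* part at the top is larger.

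The make-up of the receptor genes shifted accordingly. *Rarb* made up 1.99%, 2.54% and 3.30% of the FPKM of the 3 receptor genes in WT and 8.36%, 6.56% and 9.28% in TG. The lowest TG share was above the highest WT share, and the difference of 5.46 percentage points had the smallest p that 3 mice against 3 allow (exact permutation test, p = 0.1). The share of *Rara* was 30 ± 2.84% in WT and 28.9 ± 4.7% in TG (SD, n = 3 each, exact permutation p = 0.8). The summed level of the receptor genes was 38.9 ± 3.13 FPKM in WT and 32.6 ± 0.496 FPKM in TG, without overlap (exact permutation p = 0.1).

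The promoter of *Rarb* is shown because it holds a known response element for retinoic acid. Whether retinoic acid had a part in the rise of *Rarb* was not tested. The RefSeq window (GRCm38.p6, the build also named mm10, chr14:16575427-16575726, minus strand) runs from 250 bases before to 50 after the start site. Capitals mark a direct repeat of hexamers spaced by 5 bases, the spacing known for retinoic acid response elements, at -53 to -37 from the start site.
Rarb: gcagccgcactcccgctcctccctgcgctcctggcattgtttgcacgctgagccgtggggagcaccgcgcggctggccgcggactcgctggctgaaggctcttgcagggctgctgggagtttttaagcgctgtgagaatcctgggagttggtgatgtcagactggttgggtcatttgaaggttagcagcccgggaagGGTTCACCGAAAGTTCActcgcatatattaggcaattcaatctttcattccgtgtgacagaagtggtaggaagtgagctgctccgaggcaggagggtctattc

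The search took any pair of the hexamers AGGTCA (the consensus), AGTTCA (with a T), GGGTCA and also GGTTCA in the same direction, on either strand. With a spacing of 5 bases it matched 32 of 32851 RefSeq promoter windows, or 0.0974%. Windows were at hand for 6 of the 8 genes, 14 windows in all, and only that of *Rarb* matched. Both hexamers of the known *Rarb* element, GGTTCA and AGTTCA, are in the searched set. The match of *Rarb* was therefore fixed beforehand and is not a result. With spacings of 2 and 1, which 0.268% and 0.222% of all windows hold, 0 of the 14 windows matched. A single hexamer was in 7 of the 14, against 43.7% of all windows. The start site of this window lies 266 bases outside the deposited locus, so the table does not tell from which start site the measured *Rarb* RNA came. The windows with the repeat spaced by 5 belong to 31 genes, of which 8 were in the table and 4 were tested. Only *Rarb*, whose promoter was a textbook target beforehand, was called, 1 of 4 against 18.6% of all tested loci. That count therefore adds nothing to the call of *Rarb* itself. *Cyp26a1*, which breaks down retinoic acid, had a mean of 0.0303 FPKM in WT and 0.00693 FPKM in TG, under the filter.

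Ordered by WT level, the genes ran *Rbp4*, *Aldh1a7*, *Rarg*, *Rara*, *Rdh10*, *Crabp2*, *Stra6* and *Rarb*. The first 5 did not overlap with their neighbours, and the ranges of the last 3 overlapped. In TG the range of *Rbp4* came to overlap that of *Aldh1a7*, and *Rarb* stood before *Crabp2* and *Stra6*, again with overlapping ranges.

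The wider pathway was taken from 8 lists of 72 genes, of which 67 were in the table and 46 passed the filter. Of these 46, 7 were higher (15.2%) and 5 were lower (10.9%) in TG, against 11.6% and 7.03% of all tested loci. Their median log2 fold change was -0.10. At 41.3% of these genes WT and TG values lay apart, against 42.9% of all tested loci. The lists were chosen with earlier results of these data known, and a gene may stand in more than 1 list.

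Among 12 tested retinol and retinaldehyde oxidoreductases, 5 were called, all higher (41.7% against 11.6% of all tested loci called higher). The genotypes did not overlap at 50% of the 12, against 42.9% of all tested loci. Of the 12, 10 had a positive log2 fold change and 2 a negative one. The 2 were *Rdh12* (-0.45, limma adjusted p = 0.106) and *Adh7* (-0.28, limma adjusted p = 0.184), neither of them called. *Dhrs4*, a peroxisomal reductase of retinaldehyde and other carbonyls, rose from 47.7 ± 4.52 to 82.6 ± 5.89 FPKM (SD, n = 3 each, log2 fold change 0.78, limma adjusted p = 0.00319). *Retsat*, which saturates retinol rather than oxidizing it, rose from 59.8 ± 10.9 to 101 ± 7.19 FPKM (log2 fold change 0.76, limma adjusted p = 0.0112). *Rdh13*, a dehydrogenase of mitochondria, rose from 4.69 ± 0.537 to 7.98 ± 0.78 FPKM (log2 fold change 0.66, limma adjusted p = 0.00779). These 3 kept their call in all 13 alternatives. *Rdh14* and *Adh5*, the latter better known for oxidizing formaldehyde bound to glutathione, had log2 fold changes of 0.42 and 0.41 (limma adjusted p = 0.0263 and 0.036), and both failed the test in the same 4 of 13 alternatives, each a fit that omitted a mouse. *Dhrs7*, the most abundant of this list, had a log2 fold change of 0.19 (limma adjusted p = 0.297), and *Dhrs3*, which turns retinaldehyde back into retinol, had 0.14 (limma adjusted p = 0.571).

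Of 4 tested genes of retinol carriers and uptake, 2 were called, both lower (50% against 7.03% of all tested loci called lower). The genotypes did not overlap at 50% of the 4, against 42.9% of all tested loci. *Rbp7*, an intracellular retinol-binding protein of fat, had 38.7, 23.3 and 35.6 FPKM in WT and 10.4, 15.5 and 20.1 FPKM in TG. It fell without overlap, with a log2 fold change of -1.05 (SE 0.26, limma adjusted p = 0.035), and lost its call in 6 of 13 alternatives. *Lpl*, the lipase that also frees retinol from circulating retinyl esters, fell from 1560 ± 175 to 977 ± 62.4 FPKM (SD, n = 3 each, log2 fold change -0.67, limma adjusted p = 0.0209) and lost its call in 5. None of the 4 tested genes of retinyl ester and carotenoid metabolism was called by limma, or had an unadjusted p under 0.05. *Lipe*, a lipase of adipocytes and their most abundant, had a log2 fold change of 0.05 (limma adjusted p = 0.782).

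**Figure D4:**
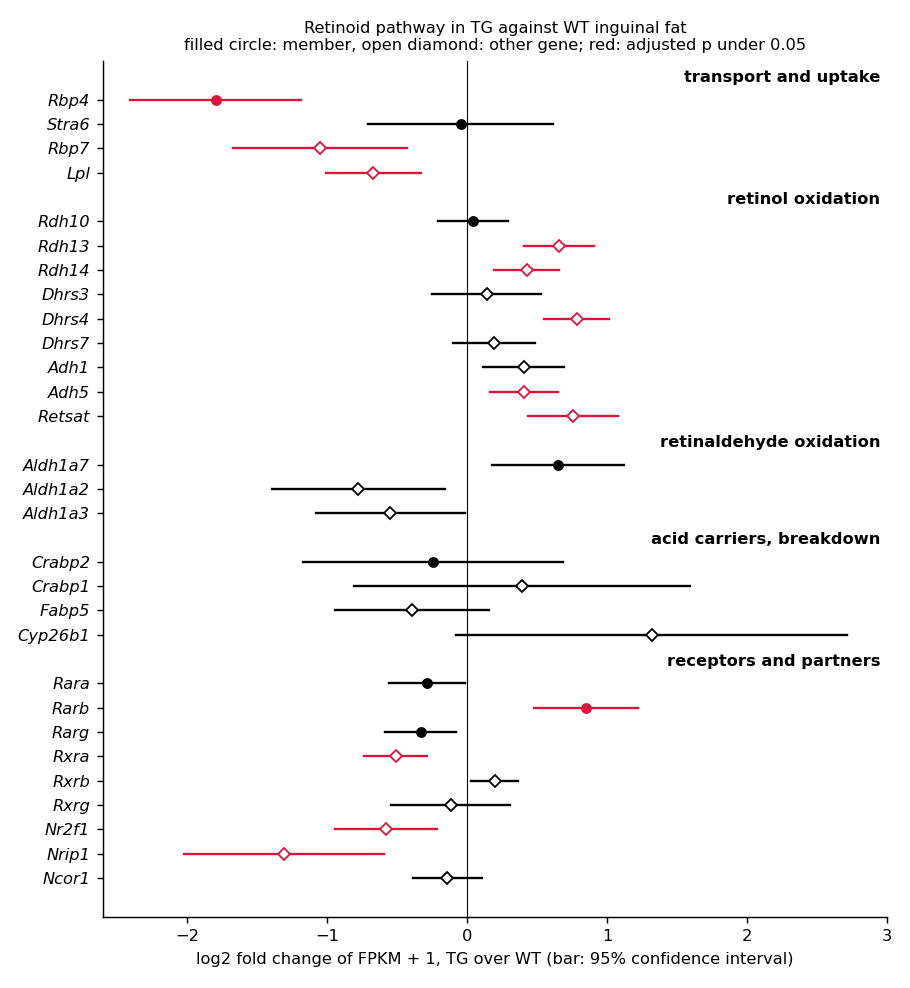
Log2 fold change of FPKM + 1, TG over WT (horizontal axis), with its 95% confidence interval. Filled circles are the 8 genes and open diamonds other genes of the pathway, in broad groups. Red marks a limma adjusted p under 0.05. The retinol oxidation heading is a loose label. It also covers *Retsat*, *Dhrs4*, *Dhrs3* and *Adh5*, whose roles given in the text differ. Which way any of these enzymes acts in iWAT was not measured. *Aldh1a7* stands under retinaldehyde oxidation by its family alone. *Rbp4*, *Rbp7* and *Lpl* lie left of 0, and the called oxidoreductases lie right of 0 between 0.41 and 0.78. Not all tested oxidoreductases are drawn. Those left out include *Rdh12* and *Adh7*, whose log2 fold changes were negative.

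Of 14 receptor partners and cofactors, 3 were called, all lower (21.4% against 7.03% of all tested loci called lower). The genotypes did not overlap at 50% of the 14, against 42.9% of all tested loci. *Rxra*, the retinoid X receptor with the highest level in WT, had 37.2, 36.5 and 37.9 FPKM in WT and 29.2, 25.4 and 23.2 FPKM in TG. It fell with a log2 fold change of -0.51 (SE 0.10, limma adjusted p = 0.0133) and kept its call in all 13 alternatives. *Nrip1*, a corepressor of nuclear receptors, fell from 25.2 ± 1.63 to 10.3 ± 4.51 FPKM (SD, n = 3 each, log2 fold change -1.30, limma adjusted p = 0.0273), and lost its call in 5 of 13. *Nr2f1*, an orphan receptor that can compete for the same DNA repeats, had a log2 fold change of -0.58 (limma adjusted p = 0.0428) and lost its call in 8 of 13. Its level was low, with 1.57 ± 0.274 FPKM in WT and 0.726 ± 0.24 FPKM in TG (SD, n = 3 each). It passed the filter through its WT mean alone. *Rxrb* and *Rxrg* were not called, with log2 fold changes of 0.20 and -0.12 (limma adjusted p = 0.0932 and 0.673). *Ncor1*, the most abundant of the list, had -0.14 (limma adjusted p = 0.366).

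Of 9 tested textbook target genes of retinoic acid, 2 were called, both higher (22.2% against 11.6% of all tested loci called higher), and 33.3% had no overlap between the genotypes, against 42.9% of all tested loci. The called genes were *Ucp1* (log2 fold change 4.12, limma adjusted p = 0.00106) and *Pdk4*, which encodes a kinase that slows pyruvate oxidation. *Pdk4* rose from 46.7 ± 9.59 to 500.3 ± 80.3 FPKM (SD, n = 3 each, log2 fold change 3.40, limma adjusted p = 0.000231). Other nuclear receptors are known to act on each of these genes too. *Rarres2*, which encodes the adipokine chemerin and had the highest mean of the list over the 6 mice, had a log2 fold change of 0.17 (limma adjusted p = 0.514), and -0.19 with quantile normalization.

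*Cyp26b1*, an enzyme that breaks down retinoic acid and is known to be induced by it, had 1.31, 1.21 and 4.71 FPKM in WT and 3.40, 4.59 and 17.4 FPKM in TG. Replicate 3 was far above the other mice in each genotype, and the groups overlapped. The log2 fold change was 1.32 with a 95% confidence interval from -0.08 to 2.71 (limma adjusted p = 0.157). With the replicate number as a block the adjusted p was 0.0144 (limma), but the numbers mark different animals.

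TG replicate 3 had the highest value of the 6 mice for *Stra6*, *Crabp2*, *Crabp1* and *Cyp26b1*, and TG replicate 1 had the lowest of the 6 for *Stra6*, *Crabp2* and *Crabp1*. These genes were picked after their values were seen. *Crabp1* ranged from 2.08 to 11.9 FPKM in TG and from 2.85 to 6.21 FPKM in WT. Summed markers of epithelium, which female inguinal fat holds in its mammary gland, were 152, 220 and 328 FPKM in TG replicates 1, 2 and 3, the same order as these 4 genes, and 369, 329 and 255 FPKM in WT replicates 1, 2 and 3. Of the 11 epithelial markers, 10 were in the table, the milk protein gene *Wap* was listed at 0, and limma called 0 of the 9 tested, with 1 at an unadjusted p under 0.05, lower in TG. In WT *Cyp26b1* was highest in replicate 3, the WT mouse with the lowest epithelial sum. *Stra6* was highest there too, though by little (1.49 FPKM, against 1.41 in WT replicate 1). *Crabp2* was lowest in that mouse, and *Crabp1* was highest in WT replicate 1, the WT mouse with the highest epithelial sum. The part of epithelial RNA in these values was not tested.

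**Figure D5:**
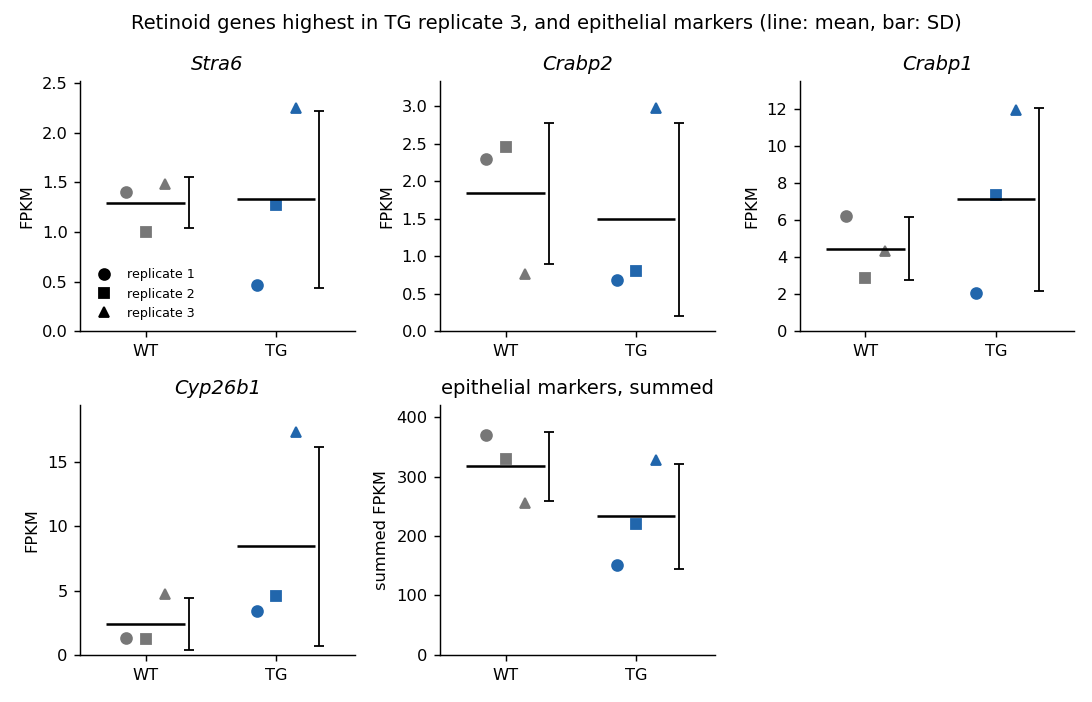
FPKM of 4 retinoid genes and the summed FPKM of the epithelial marker list (vertical axes, each from 0) in WT (grey) and TG (blue) iWAT, 1 point per mouse, with the mean as a line and the SD as a bar. In TG, replicate 1 (circle) is lowest and replicate 3 (triangle) highest in each of the 5 panels.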

How the data were processed

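RNA-Seq of iWAT from 3 TG and 3 WT mice was analysed, 1 library per mouse. RNA was extracted with Trizol and libraries were made with the Illumina TruSeq RNA v2 kit. The authors mapped single-end reads of 100 bases to mm10 with TopHat, ran Cufflinks and deposited FPKM per gene and mouse. The submitters' processing notes name TopHat2 2.0.9, Bowtie2 2.1.0 and Cufflinks 2.2.1, and options and annotation are not given in the sources used here.

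From these values log2(FPKM + 1) was tested with limma 3.58.1 in R 4.3.3 (moderated variances with a trend, genotype as the only term, p-values two-sided and Benjamini-Hochberg adjusted over the loci whose mean passed 1 FPKM in WT or in TG). Single shares were tested with exact permutation over 20 arrangements. The fit was first tested on simulated data. Relative depth was estimated from FPKM under 0.3 of all loci. Its absolute scale came from such values of genes with 1 transcript in GENCODE M21, with fragments of 200 bases. Of 1060 such values, 77.5% lay within 0.1 of a whole number of reads, where that tolerance alone gives 20%. The scale was chosen to raise this share on the same values, so the share is not an independent check. Reads per gene assume the longest coding transcript. Low values rest on few reads, and these counts carry counting error beside the spread between mice.

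The genes, the lists and the named genes were chosen with earlier results of these data known. Named are the listed genes, pathway genes with an adjusted p under 0.05, the most abundant gene of each list, and markers of cell types. *Aldh1a2*, *Crabp1*, *Cyp26a1*, *Dhrs3*, *Adh1*, *Adh7*, *Rdh12*, *Rxrb*, *Rxrg* and *Top2b* fall outside this rule and were added after their values were seen. *Rdh5* and *Hoxa5* share a row with other genes and were not used. The lists' counts include 1 gene whose values are not reported here. The planned share and sum with *Aldh1a1* were not computed. Alternatives were each mouse left out, the replicate number as a block, no trend in the variances, scaling by median ratios, quantile normalization, a pseudocount of 0.1, and either no filter or one on the mean over the 6 mice. Figures were drawn with matplotlib 3.10.9.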

Additional observations from a re-analysis of the deposited data

How the results depend on the processing

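*Rbp4* and *Rarb* kept their direction and their call in all 13 alternatives, with log2 fold changes from -2.06 to -1.58 and from 0.77 to 1.31. *Aldh1a7* and *Rarg* each passed the test in 1 of 13, where a mouse was left out, and *Rara* and *Crabp2* in 0. With single mice left out the log2 fold change of *Stra6* ranged from -0.323 to 0.251 and turned without WT replicate 3 (0.01) and TG replicate 1 (0.25), that of *Rdh10* ranged from -0.0365 to 0.099 and turned without WT replicate 1 and TG replicate 1, and that of *Lipe* ranged from -0.0133 to 0.122 and turned without TG replicate 1. With quantile normalization *Lipe*, *Dhrs7* and *Rarres2* turned to -0.24, -0.0878 and -0.19. The cause was not tested. Median log2 fold changes of all loci stayed between -0.03 and -0.01.

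Over the 6 fits that omitted a mouse, 1 to 2 of the 8 genes were higher and 1 to 2 lower, 5 to 8 pathway genes were higher and 1 to 3 lower, and 780 to 1295 of all loci were higher and 329 to 906 lower. The count of lower pathway genes was 1 without WT replicate 1, 3 without TG replicate 2 and 2 without any other single mouse. Without a filter it was 2, and the cause was not tested. The difference in the share of *Rara* ranged from -3.07 to 1.48 percentage points and turned without WT replicate 2 (0.484) and without TG replicate 3 (1.48), that of *Crabp2* ranged from -0.51 to 0.773 and turned without TG replicate 3, and that of the *Aldh1a2*, *Aldh1a3* and *Aldh1a7* sum ranged from 23.9 to 44.2 FPKM.

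The replicate numbers mark different animals. The deviations of same-numbered mice correlated at 0.0129, 0.0344 and 0.0701, and those of other pairs at -0.186 to 0.135. Whether same-numbered mice shared a litter or a batch was not tested. With the replicate block, 1230 loci were higher and 656 lower, 1 of the 8 genes was called in each direction, and 8 pathway genes were higher and 4 lower. Depth limits *Crabp2* and *Stra6* most, with as few as 9 and 25 estimated reads.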
